A study of Mus musculus with 8 samples.

Results

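The subunits of the mitochondrial respiratory chain that are encoded in the nucleus were followed across 4 groups of colon epithelial cells from mice. They were chosen by gene symbol, as the genes whose symbols begin with Nduf (letters a, b, c, s or v and a number), Uqcr, Cox (classes 4 to 8) or Atp5, together with Sdha, Sdhb, Sdhc and Sdhd. This gave 84 genes of the 19505 with a symbol on the array: 35 of complex I, 4 of complex II, 8 of complex III, 20 of complex IV and 17 of complex V, the ATP synthase. Ndufa4 and Ndufa4l2, named as complex I subunits when they were found, were counted with complex IV, to which they are now assigned. The rule reads gene symbols only. Each member had 1 row on the array, and 77 of the 84 lay above the background of the negative-control rows on all 8 arrays.

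Colon epithelial cells of C57BL/6J mice, either wild-type (WT) or knocked out for sphingomyelin synthase 2 (SMS2, gene symbol Sgms2, which converts ceramide to sphingomyelin), were profiled on Affymetrix arrays. Mice of both genotypes received no treatment or drank water with 3.5% dextran sulfate sodium (DSS), a chemical that damages the epithelium, for 2 days. The 4 groups, WT untreated, WT DSS, knockout untreated and knockout DSS, each held 2 arrays that are biological replicates per the labels. The labels give neither the reach of the knockout in the body nor the deleted part of Sgms2. They also leave out the age and sex of the mice and the number of mice behind a replicate. P-values therefore measure the spread between these samples, and 2 arrays in a group limit the precision of every value.

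The respiratory chain passes electrons from NADH (complex I) and succinate (complex II) through coenzyme Q, complex III and cytochrome c to oxygen at complex IV, and complex V uses the resulting proton gradient to make ATP. Most subunits are encoded in the nucleus and imported into mitochondria, where they are built together with a few subunits made from mitochondrial DNA. Colonocytes depend heavily on this pathway, because they burn butyrate from bacterial fermentation, and mitochondrial defects of the epithelium have been studied in colitis.

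The arrays carried several differences besides the treatment and the genotype. Sgms2 had log2 signals of 10.76 to 11.27 on the 4 WT arrays and 6.47 to 7.35 on the 4 knockout arrays. The Y-linked transcripts Eif2s3y, Uty and Kdm5d were at background on all 4 untreated arrays and bright on all 4 DSS arrays (lowest signal 7.50), so DSS and the presence of Y-linked transcripts cannot be told apart. The mean log2 signal of 14 fibroblast genes was 7.76 to 9.36 on the untreated arrays and 10.37 to 11.46 on the DSS arrays, that of 10 epithelial genes was 15.54 to 15.90 throughout, and that of 8 exocrine pancreas genes was 12.34 on WT DSS array 1, 7.65 on knockout DSS array 1 and at most 6.17 elsewhere. The mean of 10 goblet cell genes was 16.36 on WT DSS array 1, 14.86 on WT DSS array 2 and 14.74 to 15.47 elsewhere. In RNA from a mixture, fewer cells of a type and less RNA per cell cannot be told apart.

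In WT mice, the DSS arrays had lower signals of respiratory chain genes than the untreated arrays across all 5 complexes, by amounts that were mostly small. Of the 81 members tested, 76 had a difference below 0. The median difference was -0.44 on the log2 scale (quartiles -0.56 and -0.30), a 1.36-fold lower signal, against a median of -0.05 over all 13003 genes tested. A difference below -0.5 was seen for 32 of the 77 members above background, but only Ndufa3 and Cox6b2 passed an adjusted p of 0.05 in limma's test, against 4.04% of all genes (in either direction). At an unadjusted p under 0.05, 22 members were lower and none higher, where 7.14% of all genes were lower. Both DSS arrays lay below both untreated arrays for 51 members, against 24.1% of all genes. The 2 DSS arrays were unequal: WT DSS array 2 was below WT DSS array 1 for 74 of the 81 members, where 52.3% of all genes were, and it held the lowest of the 8 values for 66 members, where 18.1% of all genes had theirs.

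**Figure D1:**
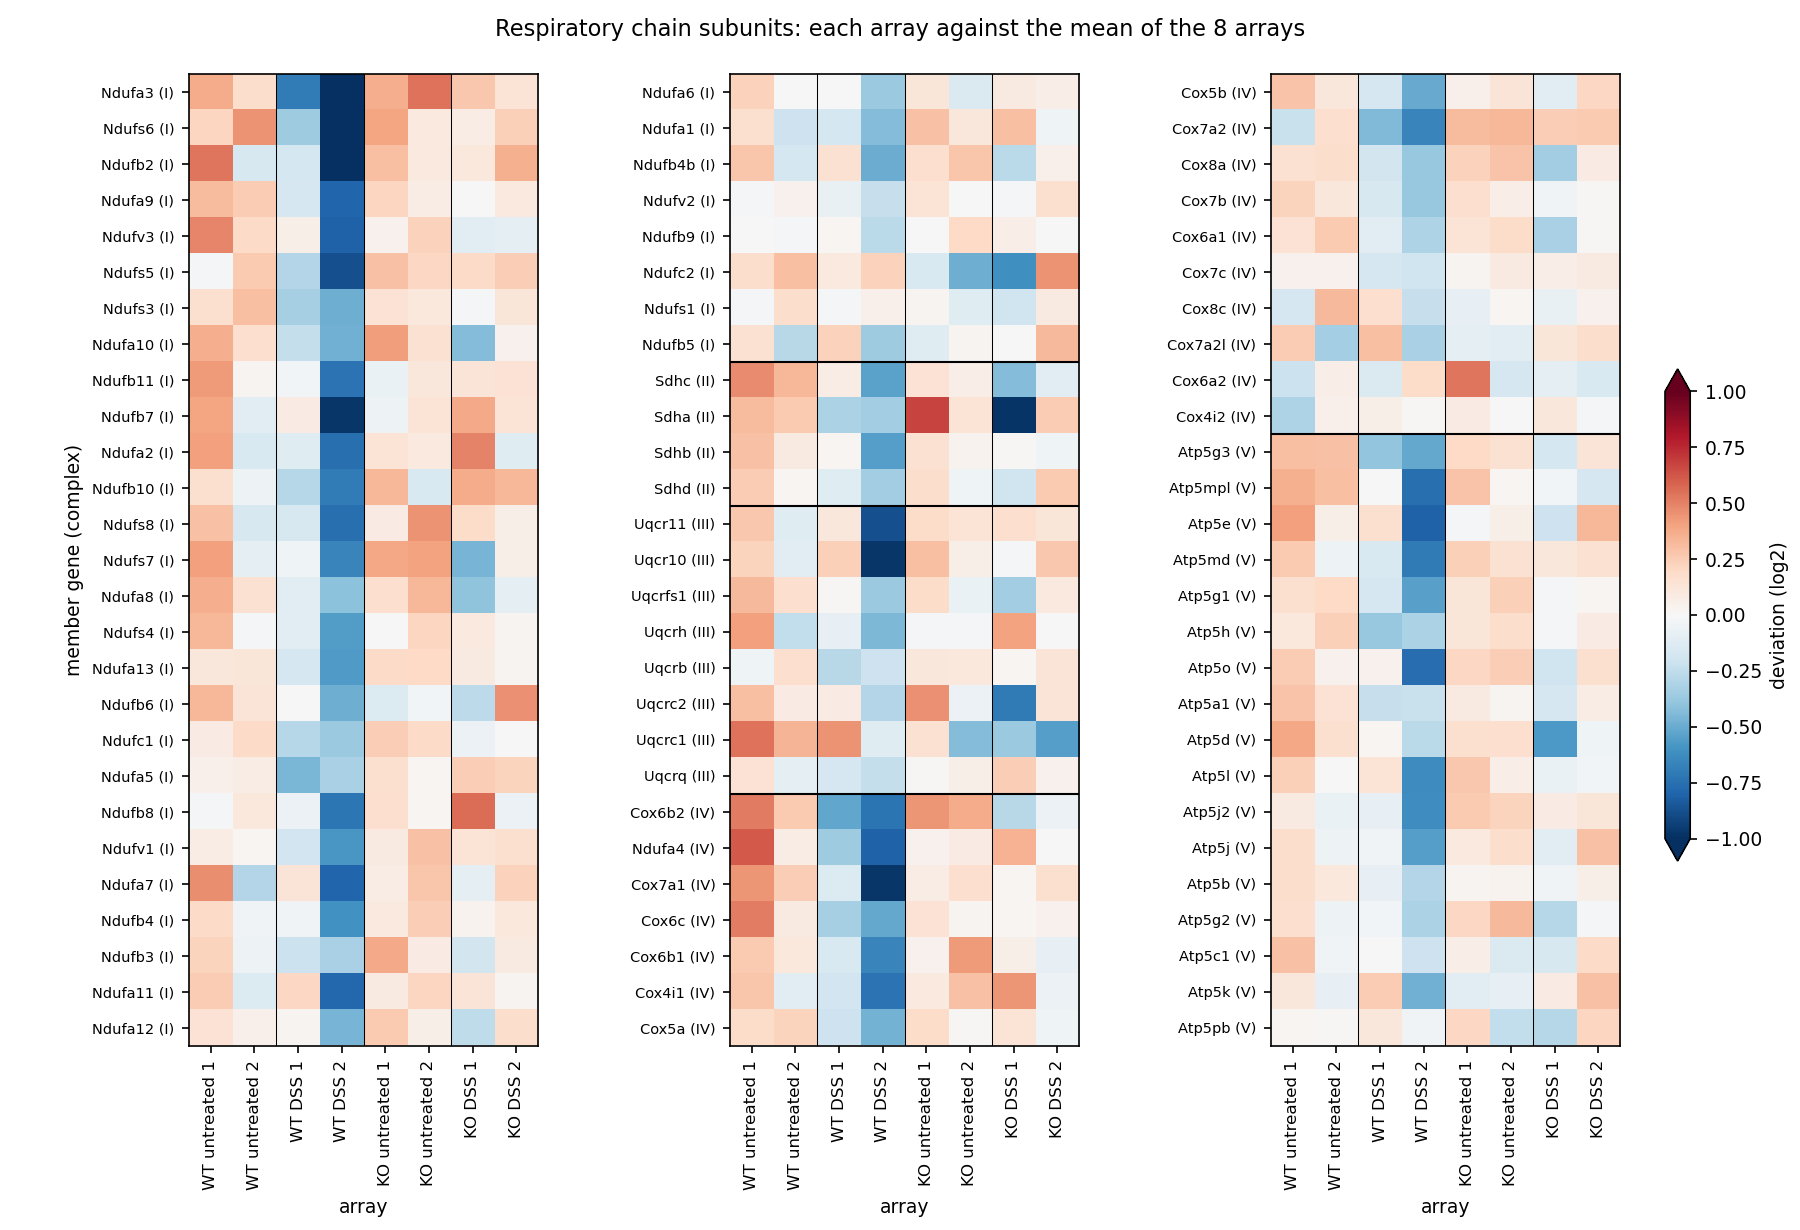
Deviation of each array from the mean of the 8 arrays (log2, colour scale from -1 to 1) for the 81 tested subunit genes, in rows ordered by complex and by the WT DSS difference, with the arrays in columns. WT DSS array 2 is blue for most genes, with a median deviation of -0.50, and WT DSS array 1 is paler, with a median of -0.10.

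Ndufa3, a small accessory subunit of the membrane arm of complex I, was the member with the largest difference. Its log2 signals were 14.45 and 14.26 on the untreated WT arrays, 13.38 and 12.92 on the WT DSS arrays, 14.44 and 14.63 on the untreated knockout arrays and 14.35 and 14.22 on the knockout DSS arrays. Both WT DSS arrays were below the other 6, which lay between 14.22 and 14.63. Ndufa3 fell with DSS in WT by 1.20 ± 0.24 (SE; limma, adjusted p = 0.0166). The call was lost without WT DSS array 2 (-0.97, adjusted p = 0.12) and without either untreated WT array (adjusted p = 0.163 and 0.0836), and it held without WT DSS array 1 (-1.44, adjusted p = 0.0216).

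Ndufs6, an accessory subunit with a zinc site that joins complex I late in assembly, came next. It read 12.62 and 12.86 on the untreated WT arrays, 12.06 and 11.29 on the WT DSS arrays, 12.80 and 12.51 on the untreated knockout arrays and 12.48 and 12.65 on the knockout DSS arrays. The WT DSS arrays were again the lowest pair, with array 2 well below array 1. Its WT difference of -1.07 ± 0.28 did not pass (limma, adjusted p = 0.0639).

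Over all 35 members of complex I, Ndufa3 and Ndufs6 included, 34 had a difference below 0 in WT, with a median of -0.47, and both DSS arrays lay below both untreated arrays for 22, against 24.1% of all genes. The 6 core subunits among them, the part conserved in bacteria that includes the carriers of the flavin and the iron-sulfur clusters, had a median of -0.47, equal to that of the 29 accessory subunits (-0.47). Among the core subunits, Ndufs3 read 14.47 and 14.62 without DSS and 13.98 and 13.83 with it in WT, without overlap, a difference of -0.64 (adjusted p = 0.158). Ndufs1, which holds several of the iron-sulfur clusters, read 11.36 and 11.55 without DSS and 11.37 and 11.43 with it, and the groups overlapped. Ndufb2, Ndufa9, Ndufv3 and Ndufs5 had differences of -0.80, -0.76, -0.72 and -0.71, all at an unadjusted p under 0.05 and none past the adjusted threshold. Ndufb5 had the difference nearest to 0 (0.00 ± 0.27).

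Complex II, which is also the succinate dehydrogenase of the tricarboxylic acid cycle, had a median difference of -0.54 in WT, with all 4 subunits below 0 and no overlap for any of them, against 24.1% of all genes. Sdhc, a membrane anchor, read 12.54 and 12.40 without DSS and 12.15 and 11.54 with it (-0.63, adjusted p = 0.266). Sdha, the flavoprotein, read 13.11 and 13.05 without DSS and 12.48 and 12.45 with it (-0.62, adjusted p = 0.465). For Sdha both WT DSS arrays were low by nearly the same amount, unlike most members.

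Complex III had the smallest median of the 5 complexes in WT, -0.33, with 8 of 8 subunits below 0 and 3 without overlap, against 24.1% of all genes, not far from that share. The core protein Uqcrc1 read 14.25 and 14.05 without DSS and 14.16 and 13.59 with it, with overlap. Uqcr10 and Uqcr11, 2 of its smallest subunits, read 12.68 and 9.02 on WT DSS array 1 and 11.47 and 8.02 on WT DSS array 2. Against the untreated WT values (12.67 and 12.33 for Uqcr10, 9.17 and 8.78 for Uqcr11), array 1 was above both for Uqcr10 and between them for Uqcr11, and array 2 was below both for both genes.

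Complex IV had a median of -0.52 over its 17 tested members in WT, with 14 below 0 and 13 lower without overlap, against 24.1% of all genes. Ndufa4 read 14.62 and 14.08 without DSS and 13.66 and 13.21 with it (-0.92 ± 0.27, adjusted p = 0.0935). Cox7a1, known as the heart and muscle form of subunit VIIa, read 12.80 and 12.60 without DSS and 12.22 and 11.38 with it (-0.90, adjusted p = 0.121). Both genes were lowest on WT DSS array 2. Cox6c was lower by 0.72 (adjusted p = 0.137; 17.25 and 16.83 against 16.41 and 16.23), while Cox7a2l, a factor of supercomplex formation, differed by 0.03.

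Several complex IV genes, mostly isoforms known from other tissues, were at or near the floor of the array. Cox7a1 was not among them and lay above background on all 8 arrays. Cox4i2, Cox6a2, Cox7b2, Cox8b and Ndufa4l2 were not above background on any array, and the testis form Cox8c was above it on 3 of 8. Cox6b2, the testis form of subunit VIb, passed the test (adjusted p = 0.0304 in WT), but it was above background on 1 array only (WT untreated array 1, 6.12 against a background of 6.07) and read 5.08 and 4.87 on the WT DSS arrays. Cox6b2 is therefore not well above background in either group and no fold is given for it. Its widespread partner Cox6b1 read 15.16 and 15.01 without DSS and 14.75 and 14.24 with it in WT (-0.59, adjusted p = 0.296).

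The ATP synthase, complex V, had a median of -0.40 in WT, with 16 of 17 genes below 0 and 9 lower without overlap, against 24.1% of all genes. The 5 subunits of its catalytic head and central stalk had a median of -0.40. The 9 of its peripheral stalk and membrane part had -0.37 and the 3 genes for the ring subunit c -0.53. Atp5g3, one of these 3 genes, read 14.92 and 14.91 without DSS and 14.23 and 14.11 with it, 14.82 and 14.77 in the untreated knockout and 14.44 and 14.75 in the knockout with DSS. The replicate arrays were close in both WT groups, and the WT difference was -0.75 ± 0.22 (limma, adjusted p = 0.101). Atp5g1 differed by -0.53 and Atp5g2 by -0.23, the latter with overlapping arrays. Atp5b, the catalytic beta subunit, read 18.18 and 18.11 without DSS and 17.92 and 17.71 with it (-0.33, adjusted p = 0.548).

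**Figure D2:**
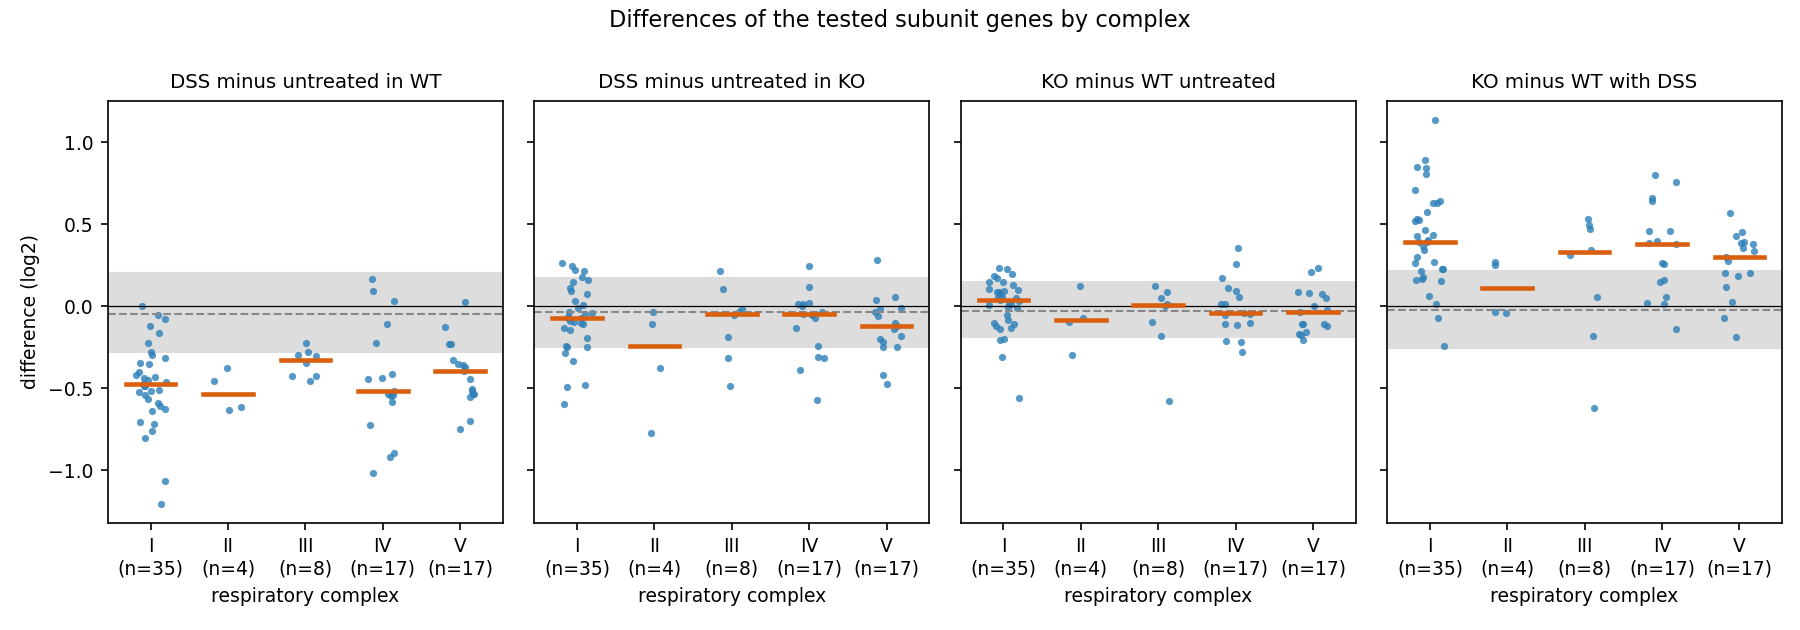
Difference (log2) of each tested subunit gene, 1 point per gene, by complex in the 4 pairwise comparisons, with the median of each complex as an orange line and the quartiles and median of all 13003 genes as a grey band and dashed line. In WT the medians for DSS lie between -0.54 and -0.33, and in the knockout between -0.24 and -0.05.

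In the knockout, the DSS arrays had nearly the same signals of respiratory chain genes as the untreated arrays. The median difference over the 81 tested members was -0.07 (all genes -0.04), or 0.0019 after quantile normalization, and 58 were below 0. No member passed the adjusted threshold, against 0.931% of all genes, and at an unadjusted p under 0.05 only Cox6b2, at background, was lower, where 4.95% of all genes were. The arrays did not overlap for 25 members that were lower with DSS, against 22% of all genes, and for 7 that were higher, against 16.8%.

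The largest knockout difference above background was that of Sdha, and it rested on 1 array. Sdha read 13.47 and 12.93 in the untreated knockout and 11.81 and 13.05 with DSS (-0.77 ± 0.36, adjusted p = 0.533). Without knockout DSS array 2 the difference was -1.39 (adjusted p = 0.0386), the 1 call among the members in that fit, whereas array 2 lay within the untreated values. Ndufs7, the core subunit next to the coenzyme Q site, read 14.03 and 14.05 without DSS and 13.18 and 13.71 with it (-0.60, adjusted p = 0.58). Ndufa8 and Ndufa10, accessory subunits of complex I, had differences of -0.49 and -0.48, each without overlap. In all 4 of these genes, knockout DSS array 1 was the lower of the pair. By complex, the medians were -0.07, -0.24, -0.05, -0.05 and -0.12 for complexes I to V.

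Without DSS, the genotypes had like signals of respiratory chain genes. The median difference, knockout minus WT, was 0.01, or -0.04 with the array medians set equal, with 39 of 81 members below 0, against a median of -0.03 over all genes. No member passed the adjusted threshold, against 0.392% of all genes, and none was past an unadjusted p of 0.05 in either direction, where 4.16% of all genes were higher. Uqcrc1 had the largest difference: it read 13.86 and 13.28 in the untreated knockout, below both untreated WT arrays (-0.58 ± 0.28, adjusted p = 0.826). Ndufc2, a membrane arm subunit of complex I, read 14.97 and 15.10 in untreated WT and 14.64 and 14.30 in the untreated knockout (-0.56, adjusted p = 0.947). The missing calls do not show that the genotypes were equal, since the SE of a single member ran from 0.21 to 0.36 in this comparison.

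With DSS, the knockout arrays had higher signals of most members than the WT arrays. The median difference was 0.34 against -0.02 over all genes, a 1.27-fold higher signal, and 9 of 81 members were below 0. No member passed the adjusted threshold, against 0.354% of all genes. At an unadjusted p under 0.05, 13 members were higher, against 4% of all genes, and the arrays did not overlap for 42 that were higher, against 16.1%. Complexes I, III, IV and V had medians of 0.39, 0.33, 0.38 and 0.30, and complex II had 0.11. The comparison shares its WT DSS arrays with that of DSS in WT, so the same low arrays enter both. Both WT DSS arrays lay below all 6 other arrays for 35 members, against 6.14% of all genes.

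Ndufa3 had the largest difference between the genotypes with DSS, 1.13 ± 0.24 (limma, adjusted p = 0.103), and it passed when limma's moderation used a trend with signal and robust estimates (adjusted p = 0.0367). Ndufs6 differed by 0.89, Ndufb2 by 0.85, Ndufb10 by 0.84 and Ndufs5 by 0.80, all complex I genes, with adjusted p between 0.295 and 0.425. Cox7a2, the liver and general form of subunit VIIa, read 13.29 and 13.07 in WT with DSS and 13.97 and 13.99 in the knockout with DSS (0.80, adjusted p = 0.278). It was also higher in the untreated knockout (14.04 and 14.06) than in untreated WT (13.50 and 13.89), without overlap. Uqcrc1 went the other way, at 14.16 and 13.59 in WT and 13.34 and 13.16 in the knockout with DSS (-0.62, adjusted p = 0.488). Averaged over both treatments Uqcrc1 was lower in the knockout by 0.60 ± 0.20 (limma, adjusted p = 0.238), and Ndufa3 and Cox7a2 were higher by 0.66 and 0.58. No member passed in that average, against 0.677% of all genes.

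**Figure D3:**
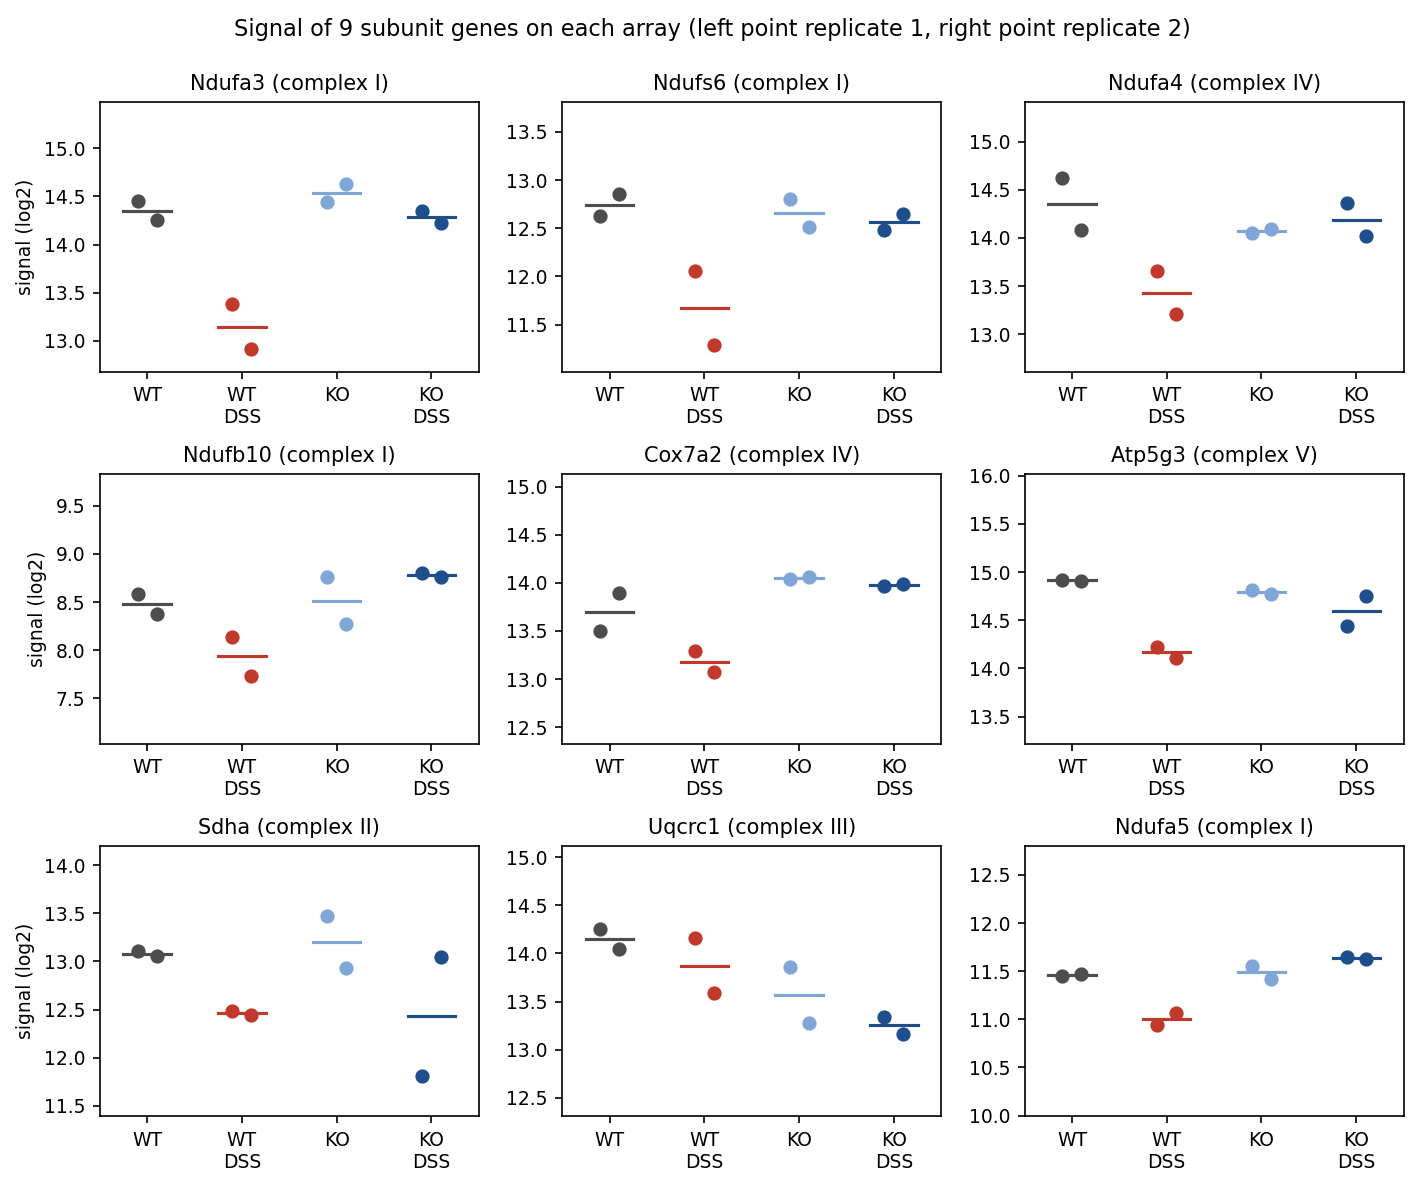
Signal (log2) of 9 subunit genes on each of the 8 arrays, with a short line at each group's mean and the same height of axis in all panels. The WT DSS arrays are the lowest pair for Ndufa3, Ndufs6, Ndufa4, Ndufb10, Cox7a2, Atp5g3 and Ndufa5, while for Sdha the lowest value is that of knockout DSS array 1, at 11.81, and for Uqcrc1 the knockout DSS arrays, at 13.34 and 13.16, lie below both WT groups.

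The DSS changes of the genotypes were compared directly by the interaction term, the DSS change in the knockout minus that in WT. Its median over the members was 0.34 (all genes -0.01). No member passed the adjusted threshold, against 0.0769% of all genes, and 4 members, Ndufa3, Ndufa4, Ndufs6 and Ndufb10, were higher at an unadjusted p under 0.05, against 1.88% of all genes. Ndufa4 had the largest term, 1.04 ± 0.38 (limma, adjusted p = 0.755), and Ndufa3 had 0.95 ± 0.34 (adjusted p = 0.73). For 3 members, Ndufa5, Ndufb10 and Ndufb11, both DSS arrays lay below both untreated arrays in WT and above them in the knockout. This was so for 2.32% of all genes, and 3 of 81 members is not far from that share. A different response of single respiratory chain genes in the genotypes was thus not detectable with 2 arrays a group. Averaged over genotypes, the median difference with DSS was -0.28, with 75 of 81 members below 0. Ndufa3 (-0.73 ± 0.17, adjusted p = 0.0292) and Cox6b2, at background, passed, against 5.52% of all genes, and 21 members were lower at an unadjusted p under 0.05, against 9.24%.

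How far the members were below the untreated level depended on which WT DSS array was used. The median WT difference was -0.66 without WT DSS array 1 and -0.24 without WT DSS array 2, and the median difference between the genotypes with DSS was 0.54 and 0.14 in the same order. The median deviations of the members from their mean over all arrays were 0.25 and 0.07 for the untreated WT arrays, -0.10 and -0.50 for the WT DSS arrays, 0.15 and 0.10 in the untreated knockout, and -0.01 and 0.09 in the knockout with DSS. Both WT DSS arrays were thus the lowest by median, and array 2 lay apart. WT DSS array 1 was below knockout DSS array 1 by less than the SD of this median between replicate arrays (0.16). The 8 exocrine pancreas genes had mean signals of 12.34 on WT DSS array 1, 7.65 on knockout DSS array 1 and at most 6.17 elsewhere. Without the DSS arrays numbered 1 of both genotypes, which left 1 array in each DSS group, assumed to vary like the others, 14 members passed in WT, all lower: Ndufa3, Ndufs6, Ndufa4, Ndufa9, Ndufb2, Ndufb7, Ndufs5, Ndufv3, Sdhc, Uqcr10, Cox7a1, Atp5e, Atp5mpl and, at background, Cox6b2. In that fit 7.6% of all genes passed.

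**Figure D4:**
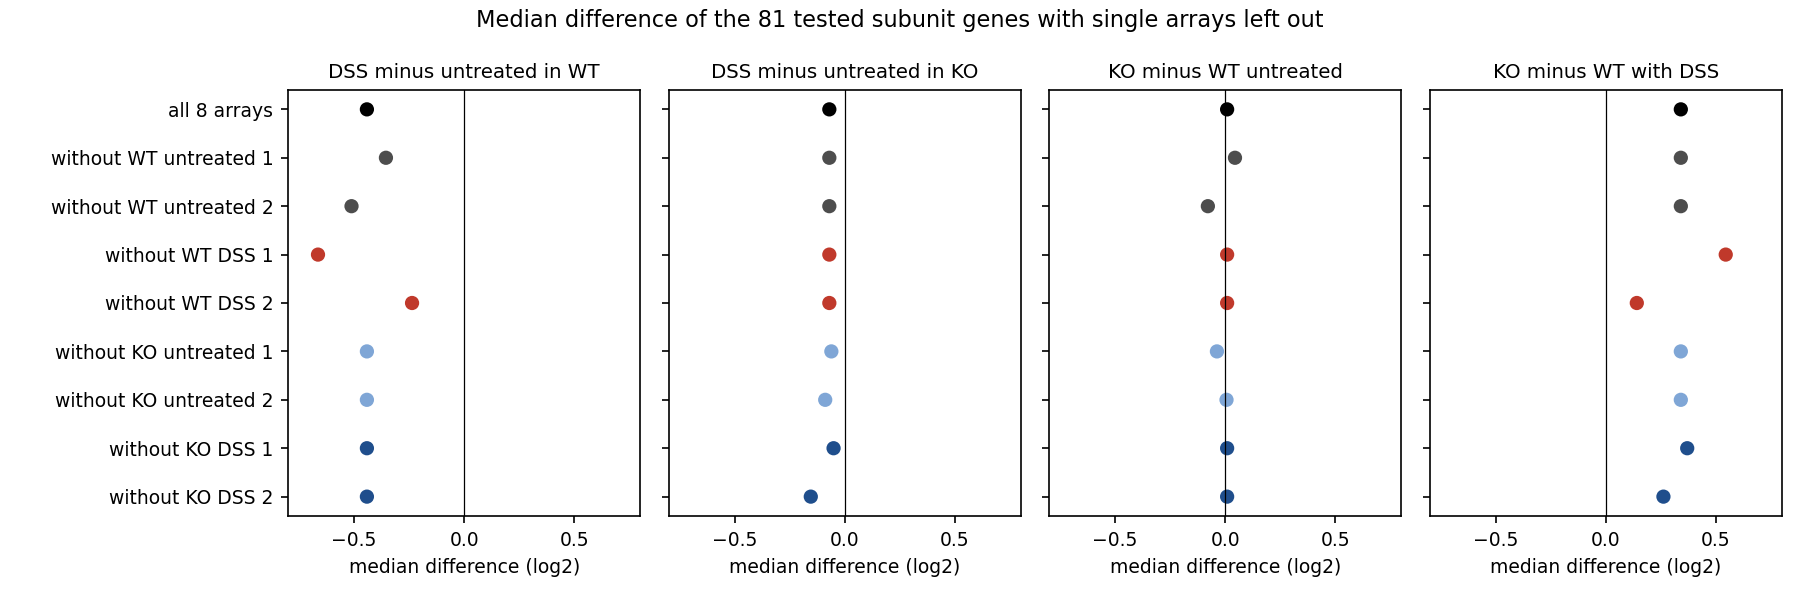
Median difference (log2) of the 81 tested subunit genes in the 4 pairwise comparisons, from all 8 arrays and with each array left out in turn, 1 point per fit. The WT DSS median moves between -0.66 and -0.24 and the difference between genotypes with DSS between 0.54 and 0.14 when a WT DSS array is left out, with no change of sign.

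Other parts of the mitochondrion were compared from lists of known genes. The mitochondrial ribosome, which makes the subunits encoded in mitochondrial DNA, had a median WT difference of -0.37 with DSS over 76 genes, 69 below 0, and none passed. Mitochondrial protein import had -0.35 over 24 genes, 21 below 0, and the assembly factors of the respiratory chain -0.27 over 45 genes, 37 below 0, with no call in either list. Among the genes of smallest p there were Timm17b, a channel subunit of the inner membrane (-1.05 in WT, limma, adjusted p = 0.0821), and the heme synthesis gene Cox10 (-0.83 in WT, adjusted p = 0.076). Another was the assembly factor Cox18, lower in the knockout than in WT with DSS (-1.11, limma, adjusted p = 0.195), where most members were higher. On WT DSS array 2 the median deviations were -0.48, -0.37 and -0.23 for these lists, and on WT DSS array 1 they were 0.02, 0.03 and -0.01, whereas the respiratory chain members were at -0.10 there.

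Enzymes that feed the chain were read from further lists. In WT with DSS the medians were -0.18 for 18 genes of the tricarboxylic acid cycle, -0.21 for 18 genes of fatty acid oxidation, -0.25 for 18 genes of coenzyme Q synthesis and electron carriers and -0.15 for 18 genes of glycolysis. In the knockout with DSS, where the members had a median of -0.07, these lists had -0.15, -0.07, -0.26 and -0.12 in the same order. Of these lists, the glycolysis list, which also holds lactate transporters and pyruvate dehydrogenase kinases, had a call in WT, the lactate exporter Slc16a3, whose signals of 5.20 and 5.29 without DSS and 6.23 and 6.08 with it were at or near background. Pdk4, a kinase that shuts off pyruvate dehydrogenase, fell in the knockout by 1.69 ± 0.30 (limma, adjusted p = 0.0259), from 10.62 and 10.56 to 9.22 and 8.58. In WT its signals went from 10.76 and 9.99 to 9.69 and 9.84. Averaged over genotypes its difference was -1.15 ± 0.21 (limma, adjusted p = 0.00815). Gpd2, which passes electrons from the glycerol phosphate shuttle to coenzyme Q, fell with DSS averaged over genotypes by 1.34 ± 0.26 (adjusted p = 0.0106). The cytosolic ribosome, another set of small and abundant proteins, had a median of 0.04 in WT with DSS over 58 genes and 0.20 in the knockout against WT with DSS. The 1903 genes with a mean signal of at least 12 had medians of -0.05 and -0.06.

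Among regulators of mitochondrial genes, the fatty acid receptor Ppara fell with DSS in WT by 1.58 ± 0.24 (limma, adjusted p = 0.00359). It read 9.17 and 9.32 without DSS and 7.64 and 7.70 with it in WT, and 9.28 and 9.30 without DSS and 8.02 and 8.57 with it in the knockout. The DSS arrays were below the untreated arrays in both genotypes. Pparg, a related receptor induced by butyrate in colonocytes, fell averaged over genotypes by 0.70 ± 0.17 (adjusted p = 0.0308). The other 20 of the 22 regulators tested did not pass, and the list's median was -0.01 in WT and -0.23 in the knockout. Oma1, a protease of the inner membrane that responds to stress, fell in WT by 1.04 ± 0.24 (limma, adjusted p = 0.0358). It read 10.44 and 10.63 without DSS and 9.74 and 9.25 with it in WT. In the knockout it read 10.25 and 10.24 without DSS and 9.58 and 9.75 with it. Averaged over genotypes its difference was -0.81 ± 0.17 (limma, adjusted p = 0.0173).

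**Figure D5:**
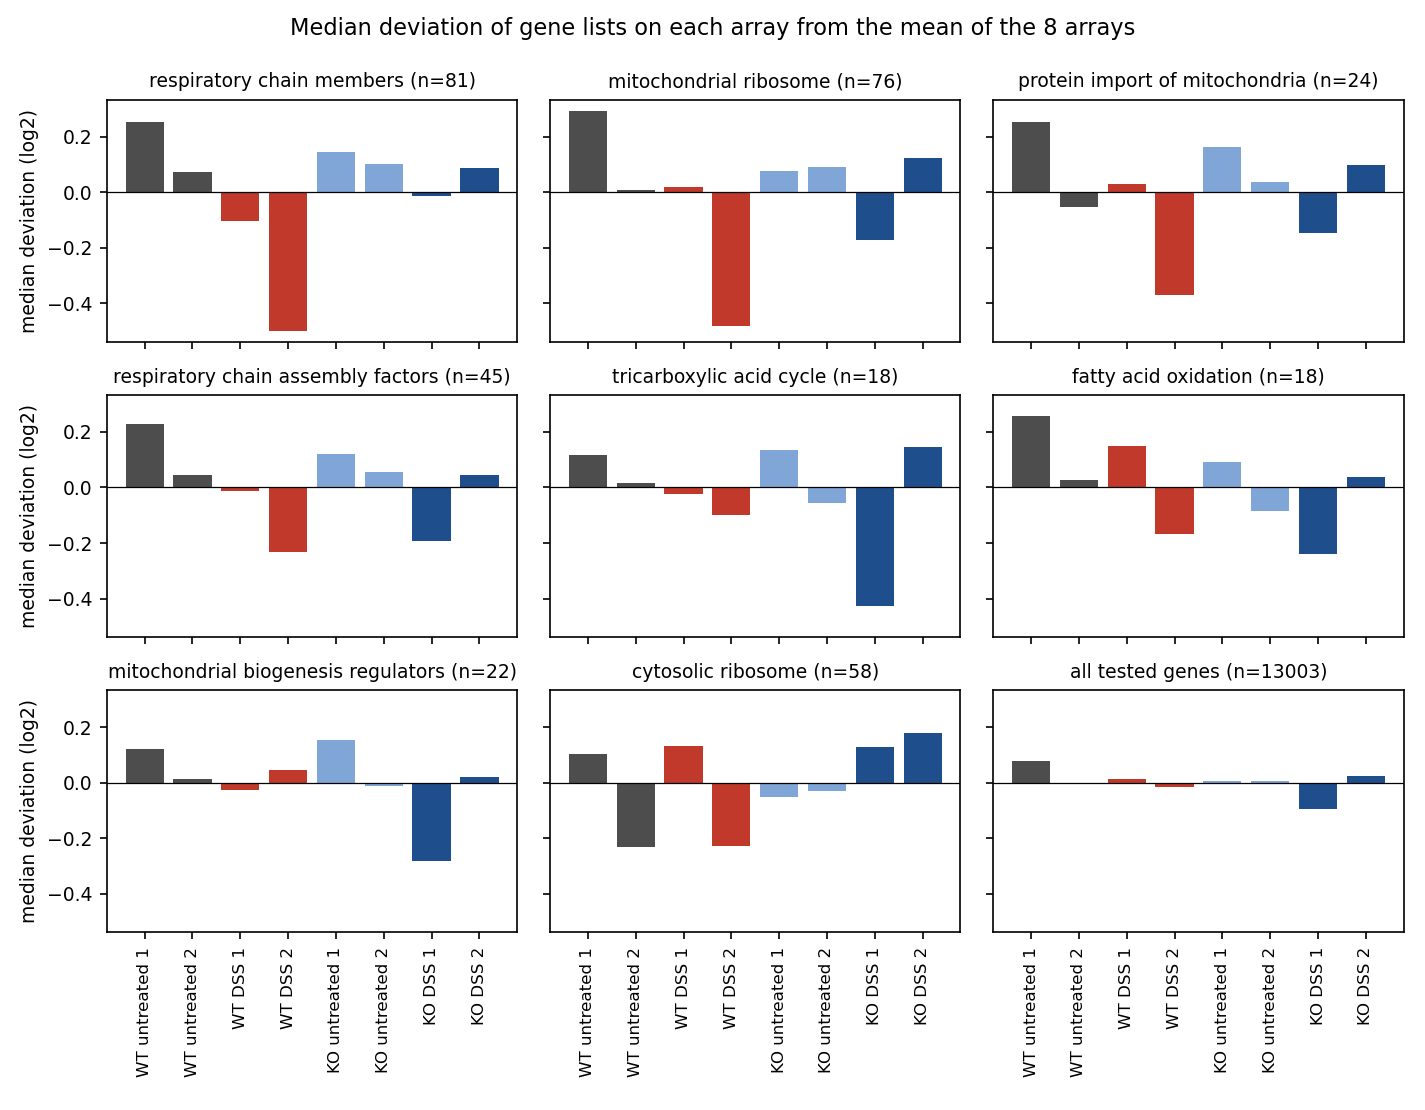
Median deviation (log2) of gene lists on each array from the mean of the 8 arrays, 1 bar per array, with the number of tested genes in each title. The respiratory chain members stand at -0.10 and -0.50 on the WT DSS arrays, while the cytosolic ribosome stands at 0.13 and -0.23 and all tested genes at 0.01 and -0.02.

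Markers of cell types and of division also differed between these arrays. Of 17 proliferation genes, 5 fell in WT with DSS, against 4.04% of all genes called in that comparison, and 0 passed in the knockout, against 0.931%. In the knockout all 17 were below 0, with a median of -0.47 (-0.94 in WT), and 5 were lower at an unadjusted p under 0.05, against 4.95% of all genes. Their mean log2 signals were 9.98 and 9.86 for the untreated WT arrays, 9.06 and 8.74 for the WT DSS arrays, 9.82 and 9.98 in the untreated knockout, and 8.93 and 9.78 in the knockout with DSS. WT DSS array 2, with the lowest respiratory chain median, also had the lowest of these means. Knockout DSS array 1 had a mean of 8.93 and a respiratory chain median of -0.01, and WT DSS array 1 had 9.06 and -0.10. These medians differed by less than their SD between replicate arrays (0.16). The mean signals of 7 T and NK cell genes were 6.42 and 7.16 on the WT DSS arrays and at most 6.21 elsewhere, mostly near or below background. Of 14 fibroblast genes, 11 rose in WT and 6 in the knockout, and of 9 macrophage and dendritic cell genes 6 and 5 rose, against the same 4.04% and 0.931% of all genes. Their mean signals were 10.47 and 11.00 (fibroblast) and 8.06 and 8.45 (macrophage) on the WT DSS arrays and 11.46 and 10.37, and 9.02 and 8.35, on the knockout DSS arrays. Of 19 colonocyte genes, 7 fell and 1 rose in WT, and 3 fell in the knockout, again against 4.04% and 0.931%, with mean signals of 14.32 and 14.31 in WT and 14.45 and 14.22 in the knockout with DSS. Stromal markers also differed between the genotypes. The mean signals of 13 smooth muscle genes were 9.98 and 10.84 on the untreated WT arrays, 11.39 and 10.87 on the WT DSS arrays, 12.18 and 12.39 in the untreated knockout and 13.16 and 11.30 in the knockout with DSS. Knockout minus WT, their median difference was 1.93 without DSS, with 13 of 13 higher at an unadjusted p under 0.05 (4.16% of all genes) and 1 past the adjusted threshold (0.392%), and 0.99 with DSS, with 5 of 13 higher at an unadjusted p under 0.05 (4%). The fibroblast genes had a median of 1.37 without DSS, with 3 of 14 past the adjusted threshold, and 0.24 with DSS, with none. The part of all these markers in the respiratory chain differences, between treatments and between genotypes, was not tested. The X-linked members Ndufa1, Ndufb11 and Cox7b had WT differences of -0.28, -0.61 and -0.44 with DSS, within the range of the autosomal members. These values do not tell DSS apart from the presence of Y-linked transcripts.

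The promoters of the members were read to see which short sequences known from such genes they share. RefSeq promoters of build GRCm38.p6 were found for 69 of the 84 members, and the 250 bases before the start were searched on both strands, with overlapping matches counted. The letters TGCGCA of the nuclear respiratory factor NRF1, a known activator of respiratory chain genes, were present in 14 members (20.3%), against 10.9% of the tested genes and 6.66% of all promoters in the table. CCGGAAG, a site of ETS factors such as GABP, was present in 11 (15.9% against 12.6% and 7.05%), and AAGGTCA, a site of estrogen-related receptors, in 5 (7.25% against 3.14% and 4.05%). AAGATGG, a site of YY1, was in none (against 4.28% and 4.53%). The box CCAAT was present in 30 (43.5% against 36.6% and 34.5%), and the GC box GGGCGG in 25 (36.2% against 54.7% and 32.9%). No letters of NRF1, ETS, ERR or YY1 were found in 46 members. These matches are a description of the sequence and no test of binding.

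The 250 bases before the start are shown for Ndufa3 and Ndufs6, the members with the largest WT differences above background, and for Atp5g3, whose replicate arrays lay close together in WT, from RefSeq, 5′ to 3′ in the direction of the gene. Capitals mark the matches: the GC box in Ndufa3, the CCAAT box and then the NRF1 letters in Ndufs6, and the CCAAT box and then the ERR letters in Atp5g3.
Ndufa3 promoter, chr7:3617123-3617372, plus strand: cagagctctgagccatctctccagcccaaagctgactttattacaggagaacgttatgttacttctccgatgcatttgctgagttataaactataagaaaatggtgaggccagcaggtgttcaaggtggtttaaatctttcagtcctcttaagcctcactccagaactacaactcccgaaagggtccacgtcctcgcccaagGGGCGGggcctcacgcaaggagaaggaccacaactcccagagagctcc
Ndufs6 promoter, chr13:73328483-73328732, minus strand: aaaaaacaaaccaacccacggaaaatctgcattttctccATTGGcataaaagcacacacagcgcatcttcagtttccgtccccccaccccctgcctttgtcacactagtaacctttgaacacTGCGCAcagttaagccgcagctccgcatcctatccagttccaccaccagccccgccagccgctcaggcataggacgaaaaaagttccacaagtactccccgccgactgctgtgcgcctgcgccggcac
Atp5g3 promoter, chr2:73911327-73911576, minus strand: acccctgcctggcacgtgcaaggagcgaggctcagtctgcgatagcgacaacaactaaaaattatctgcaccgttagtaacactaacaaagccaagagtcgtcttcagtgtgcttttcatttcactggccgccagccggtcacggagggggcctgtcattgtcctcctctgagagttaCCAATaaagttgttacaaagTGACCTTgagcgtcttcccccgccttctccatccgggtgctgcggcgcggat
The GC box of Ndufa3 began 48 bases before the start, the NRF1 letters of Ndufs6 began 128 bases before it and the ERR letters of Atp5g3 began 52 bases before it.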

How the data were processed

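Log2 signals of 8 arrays of mouse colon epithelial cells were used as deposited by the authors. Per the submitters' processing notes they come from Affymetrix Expression Console. Its version, normalization and background correction are not stated in these sources. Of 28846 rows, 6640 control rows and 2634 rows with no symbol were left out, and the row of highest mean was kept per gene. All 19505 genes matched RefSeq (GRCm38.p6) by Entrez number. The lowest 33.3% by mean (below 5.15) were left out, which removed 3 members (Cox7b2, Cox8b and Ndufa4l2). Background is the 75th percentile of 5222 negative-control rows per array (6.00 to 6.24).

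The 8 arrays were fitted together in limma 3.58.1 (R 4.3.3), with a mean for each of the 4 groups (4 residual and 7.27 prior degrees of freedom), two-sided, with Benjamini-Hochberg adjustment over 13003 genes and a threshold of 0.05. The pipeline was tested on simulated data. The members, lists and tests were chosen with earlier results of these data known, so no list is independent support. The lists of cytosolic ribosome, of bright genes and of parts of complexes I and V were added after seeing the data. Genes were named by rule: members past the threshold, the 3 of smallest p per pairwise comparison in each complex (1 in complex II), tissue isoforms, the c subunit and Sdh genes, and in other lists those that passed or else the 2 of smallest p. Atp5b, Atp5e, Cox6c, Ndufa5, Ndufb2, Ndufb5, Ndufb7, Ndufb11, Ndufs1, Ndufs3, Ndufs5 and Ndufv3 were added after their values were seen. Alternatives covered filters, rows, scaling, moderation, weights, arrays in the fit, a replicate block and each array left out. The replicate numbers of the labels carry no stated pairing.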

Additional observations from a re-analysis of the deposited data

Results flagged for a closer look

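Of the 81 tested members, 3 had differences of opposite sign in the genotypes without overlap, against 2.32% of all genes, not far from that share. For these 3, both DSS arrays lay below both untreated arrays in WT and above them in the knockout. For Ndufa5, an accessory subunit of complex I, the DSS difference was -0.45 in WT and 0.15 in the knockout, and the interaction term was 0.60 ± 0.31 (limma, adjusted p = 0.935). For Ndufb10, a membrane arm subunit, the differences were -0.54 and 0.26 and the interaction term was 0.81 ± 0.36 (limma, adjusted p = 0.906). For the X-linked Ndufb11 they were -0.61 and 0.11, with an interaction term of 0.72 ± 0.39 (limma, adjusted p = 0.952). The term was tested and did not pass the adjusted threshold for any of these genes.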

How the results depend on the processing

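The median of the members kept its sign in WT with DSS, in the knockout against WT with DSS and in the interaction under every alternative run. With single arrays left out it ran from -0.66 to -0.24, from 0.14 to 0.54 and from 0.11 to 0.55, and the number of members called ran from 0 to 3 in WT with DSS, from 0 to 1 in the knockout with DSS and from 0 to 4 averaged over genotypes. Without the DSS arrays numbered 1 the medians were -0.66, 0.58 and 0.57, with 14 calls in WT and 5 averaged over genotypes. In WT 4 members passed at an adjusted p under 0.1, and 5 with trend and robust moderation. That moderation also called 1 member in the knockout against WT with DSS. With genes below the median left out, 1 member passed in WT and 1 in the average over genotypes. In the main fit 2 members passed in WT, against 4.04% of all genes. For WT in the fit without the DSS arrays numbered 1, the share of all genes is given above. No share stands beside the other counts of the alternative fits, so those counts say nothing about the members in particular. The replicate numbers did not pair the samples (correlations of deviations from -0.25 to 0.28), and with a replicate block 2 members passed in WT and no call of a named member changed. Medians near 0 changed sign: -0.15 to 0.0019 in the knockout with DSS and -0.079 to 0.044 for knockout minus WT without DSS. Of the single results, Uqcr11 in WT ran from -0.96 to 0.040 and Cox6a2 and Uqcr10 without DSS, knockout minus WT, from -0.095 to 0.61 and from -0.045 to 0.29 with arrays left out. The cause of these shifts was not tested. Signals near background limit several tissue isoforms of complex IV.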
